A study of Mus musculus with 8 samples.

Results

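Collagens are the chains of the triple-helical proteins that give the gut wall its tensile scaffold, and their genes were followed in mouse small intestine shortly after a dose of carbon ions. The members were every array probe whose printed gene name is Col, a number, a, and a number, 66 probes of 39429 on the array, which name 44 genes of 31131. Of these genes, 32 were measured, meaning that a probe of the gene passed the scanner software's background test on each array of some group, as was so for 21806 genes in all. Measured were 8 of 11 fibrillar, 5 of 6 basement membrane and 19 of 27 other collagens, and only measured genes enter the comparisons.

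The animals were female BALB/cA Jcl mice of 8 weeks, all sampled 4 h after carbon-ion irradiation or at 0 Gy. The 4 groups, of 2 arrays each, were 8 Gy after FGF1/CPP-C, 8 Gy after FGF1, 8 Gy after saline, and 0 Gy after saline, with every agent given into the peritoneum. FGF1 is fibroblast growth factor 1, FGF1/CPP-C is a chimeric protein built on it, and the design text puts the pretreatment at 12 h and names the segment as jejunum. No group received a growth factor without irradiation, so a growth factor's own effect on collagen genes cannot be told apart from its effect in irradiated tissue. Whether 2 arrays with the same label stand for different animals is not given in the labels. The p-values therefore cover array-to-array spread alone, part of which may be technical.

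As background, a fibrillar collagen is made as a procollagen, hydroxylated and folded in the endoplasmic reticulum with the help of the chaperone Hsp47, trimmed by propeptide proteases outside the cell, and crosslinked by lysyl oxidases. In the gut these fibres fill the submucosa and the layer under the epithelium and are made mainly by fibroblasts and smooth muscle. Basement membrane collagen, type IV, forms a sheet-like network under epithelium, around vessels and around muscle cells. The remaining types decorate fibrils, form beaded microfilaments, anchor the epithelium or span the plasma membrane.

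Values are log2 of the processed signal minus the log2 of each array's 75th percentile, called the normalised signal below, so 0 is the level of a probe at that percentile and a difference of 1 is a 2-fold difference. Levels are compared only within a probe. That percentile lay between 1735 and 2165 in intensity units, and the share of probes well above background between 66.9% and 71.1%. The number of arrays, 2 a group, limits the precision of every value. Replicate numbers follow the slides, with all first replicates on slide 1 and all second ones on slide 2, so differences can also be taken within a slide. The 10 measured markers of absorptive enterocytes had a median normalised signal of 6.25 to 7.02. Markers of the stomach antrum, 8 of 11 measured, were high on 3 arrays, with medians of 2.09 for 8 Gy FGF1 replicate 1, 3.37 for 8 Gy saline replicate 2 and 2.19 for 0 Gy saline replicate 1, against -5.52 to -3.98 on the other 5. Pancreatic acinar markers, 11 of 14 measured, were also high on the last 2 of these 3 arrays. The calls of collagens and of listed genes, and some class medians, are also given without those 3 arrays. Most other results are given with all 8 arrays only. In bulk tissue, fewer cells of a type and less RNA per cell cannot be told apart.

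**Figure D1:**
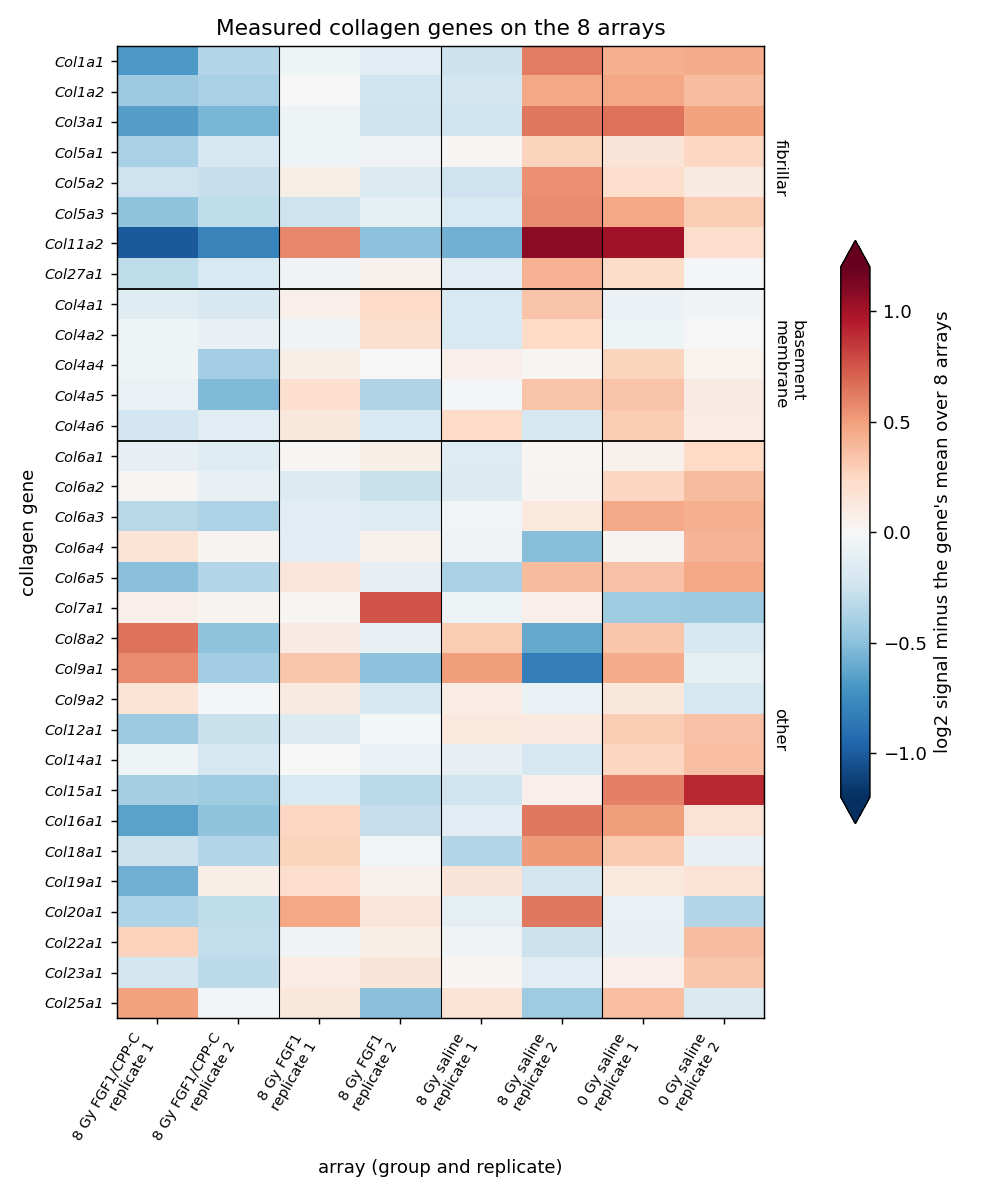
Each row is a measured collagen gene and each column an array, grouped as 8 Gy FGF1/CPP-C, 8 Gy FGF1, 8 Gy saline and 0 Gy saline, and the colour is the normalised log2 signal minus the gene's mean over the 8 arrays. The fibrillar rows are red in 8 Gy saline replicate 2 and both 0 Gy saline arrays, except Col27a1 in 0 Gy saline replicate 2, and blue in both FGF1/CPP-C arrays, while Col7a1 is blue on both 0 Gy saline arrays.

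The first comparison set the mean of the 3 irradiated groups, 6 arrays, against the 2 unirradiated saline arrays. The FGF1/CPP-C and FGF1 arrays in that mean had a growth factor and no unirradiated array had one, so dose and pretreatment are mixed. Carbon ions alone, in saline mice, are compared further below, where no collagen passed. Collagen genes were mostly lower in the irradiated arrays. Col15a1, the core protein of a basement membrane proteoglycan that borders vessels and muscle, and Col6a3, the large chain of the type VI microfilament, fell. They were the 2 of 32 measured collagens that passed limma's test at an adjusted p under 0.05, where 2.4% of the 21771 genes tested passed, 1.07% as lower and 1.33% as higher. Without adjustment, 12 collagens were lower at p under 0.05, against 11.3% of all genes, and 1 was higher, against 9.31%. In all, 27 of the 32 had a negative fold change, as did 57.5% of all genes. The median log2 fold change was -0.26 over the collagens and -0.04 over all genes.

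The Col15a1 probe, at chr4:47283786-47283845 (mm9, plus strand), read -4.21 and -4.23 in FGF1/CPP-C mice, -3.99 and -4.13 in FGF1 mice and -4.04 and -3.74 in saline mice after 8 Gy, against -3.20 and -2.90 in saline mice at 0 Gy. All 6 irradiated arrays lay below both unirradiated arrays, and the 3 irradiated groups were close to each other. The log2 fold change was -1.01 ± 0.12 (SE), or 2.01-fold lower, with limma's adjusted p = 0.024, and 0.041 with the slide as a block. Within slides, the difference was -0.88 on slide 1 and -1.14 on slide 2. The call was lost, at an adjusted p of 0.28, when the 3 arrays with antrum transcripts were left out, although the log2 difference was then -1.23. The other probes of Col15a1, 2 in number, were not well above background on any array.

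Col6a3, probed at chr1:92663663-92663722 (mm9, minus strand), read 0.49 and 0.45 in FGF1/CPP-C mice, 0.70 and 0.69 in FGF1 mice and 0.79 and 0.95 in saline mice after 8 Gy, against 1.29 and 1.26 in saline mice at 0 Gy. The 4 groups did not overlap at all and stood in the order just given, lowest in FGF1/CPP-C mice. Irradiated arrays differed from unirradiated ones by -0.59 ± 0.08 on the log2 scale, 1.51-fold lower, with limma's adjusted p = 0.027. With the slide as a block the adjusted p was 0.054, and the difference was -0.63 within slide 1 and -0.56 within slide 2. Without the 3 arrays with antrum transcripts it was -0.61, with an adjusted p of 0.28.

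The sequence around the start site of both genes is shown because they were the 2 collagens that passed. RefSeq's windows on GRCm38.p6 run from 250 bases before the start site to 50 after it, written 5′ to 3′ on the gene's strand, at chr4:47207762-47208061 (plus) for Col15a1 and chr1:90843922-90844221 (minus) for Col6a3.
Col15a1: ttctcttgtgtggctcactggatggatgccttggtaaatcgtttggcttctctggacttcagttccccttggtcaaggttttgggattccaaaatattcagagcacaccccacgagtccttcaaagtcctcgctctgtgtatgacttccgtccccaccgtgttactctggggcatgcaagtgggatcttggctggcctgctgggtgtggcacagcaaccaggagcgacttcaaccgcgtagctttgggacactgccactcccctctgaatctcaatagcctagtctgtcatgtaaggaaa
Col6a3: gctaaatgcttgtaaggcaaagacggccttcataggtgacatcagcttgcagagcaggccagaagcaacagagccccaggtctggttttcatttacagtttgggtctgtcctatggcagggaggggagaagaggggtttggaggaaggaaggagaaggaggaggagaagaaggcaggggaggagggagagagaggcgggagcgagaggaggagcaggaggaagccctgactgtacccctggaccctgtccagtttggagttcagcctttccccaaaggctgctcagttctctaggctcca
Both strands were searched for the CCAAT box, for the GC box with the letters GGGCGG, for the AP-1 site with the letters TGANTCA (N is any base) and for the TATA box with the letters TATAAA, and matches are in capitals in the windows that are not marked otherwise. Neither window holds any of these 4 strings, which says only that the letters are not in these 300 bases. Over the 32851 windows of the table, 37.4% held a CCAAT box, 35.7% a GC box, 7.8% an AP-1 site and 13.6% a TATA box. Of the 30 windows of measured collagens, from 27 genes, 11 held a CCAAT box, 20 a GC box, 1 an AP-1 site and 2 a TATA box.

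The other measured type VI chains had negative fold changes as well, and none of these passed. All 5 measured beaded filament genes had a negative fold change in the irradiated arrays, with a median of -0.42, and on both slides. Of all genes, 57.5% were negative in this comparison. Col6a2, which pairs with Col6a1 in the core of the microfilament, read -0.10 and -0.21 in FGF1/CPP-C mice, -0.29 and -0.39 in FGF1 mice and -0.29 and -0.09 in saline mice after 8 Gy, against 0.13 and 0.25 at 0 Gy. Its 6 irradiated arrays lay below both unirradiated ones, by -0.42 ± 0.09 on the log2 scale (limma, adjusted p = 0.078). Col6a1 read 2.30 and 2.25 in FGF1/CPP-C mice, 2.42 and 2.46 in FGF1 mice and 2.25 and 2.42 in saline mice after 8 Gy, against 2.45 and 2.64 at 0 Gy. It differed by -0.19 ± 0.09 (adjusted p = 0.29), with FGF1 replicate 2 inside the unirradiated range. Col6a4 and Col6a5, chains that can take the place of Col6a3 in the trimer, differed by -0.29 ± 0.16 and -0.54 ± 0.20. Both overlapped between irradiated and unirradiated arrays, and Col6a4 differed by only -0.04 within slide 1, against -0.55 within slide 2. The probe used for Col6a5 has no mapped position in the array files.

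Col12a1 and Col14a1, which bind the surface of type I fibrils, had the next smallest p-values among the remaining types. Col12a1 read -2.86 and -2.69 in FGF1/CPP-C mice, -2.59 and -2.45 in FGF1 mice and -2.30 and -2.31 in saline mice after 8 Gy, against -2.12 and -2.08 at 0 Gy. Each group lay wholly below the next in that order, and irradiated arrays differed from unirradiated ones by -0.43 ± 0.08 (limma, adjusted p = 0.063). Col14a1 read 0.38 and 0.23 in FGF1/CPP-C mice, 0.44 and 0.34 in FGF1 mice and 0.33 and 0.23 in saline mice after 8 Gy, against 0.69 and 0.79 at 0 Gy. FGF1/CPP-C mice overlapped both other irradiated groups and FGF1 mice lay above saline mice. All 6 irradiated arrays lay below both unirradiated ones, by -0.42 ± 0.08 (limma, adjusted p = 0.068), and the gene's second probe differed by -0.62.

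In all, 5 of 32 collagens had all 6 irradiated arrays below both unirradiated arrays, a share near the 12.3% of all genes. They were Col15a1, Col6a3, Col6a2, Col12a1 and Col14a1. For 1 collagen all 6 lay above, against 10.5% of all genes. That 1 was Col7a1, whose protein forms the fibrils that anchor stratified epithelium to the tissue below. It read 0.37 and 0.33 in FGF1/CPP-C mice, 0.31 and 1.06 in FGF1 mice and 0.24 and 0.36 in saline mice after 8 Gy, against -0.12 and -0.13 at 0 Gy. FGF1 replicate 2 stood above the other 5 irradiated arrays. The log2 difference was 0.57 ± 0.19 and did not pass (limma, adjusted p = 0.17). The Col7a1 window, chr9:108953336-108953635 (GRCm38.p6, plus strand), is shown as that of the collagen on the other side, with 1 CCAAT (read as ATTGG) and 1 GGGCGG in capitals.
Col7a1: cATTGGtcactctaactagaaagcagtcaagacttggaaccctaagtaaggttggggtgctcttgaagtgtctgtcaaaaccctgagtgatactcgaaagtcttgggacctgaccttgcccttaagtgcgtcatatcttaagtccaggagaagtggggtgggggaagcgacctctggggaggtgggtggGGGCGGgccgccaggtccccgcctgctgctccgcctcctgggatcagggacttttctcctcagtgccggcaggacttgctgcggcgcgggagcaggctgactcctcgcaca

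**Figure D2:**
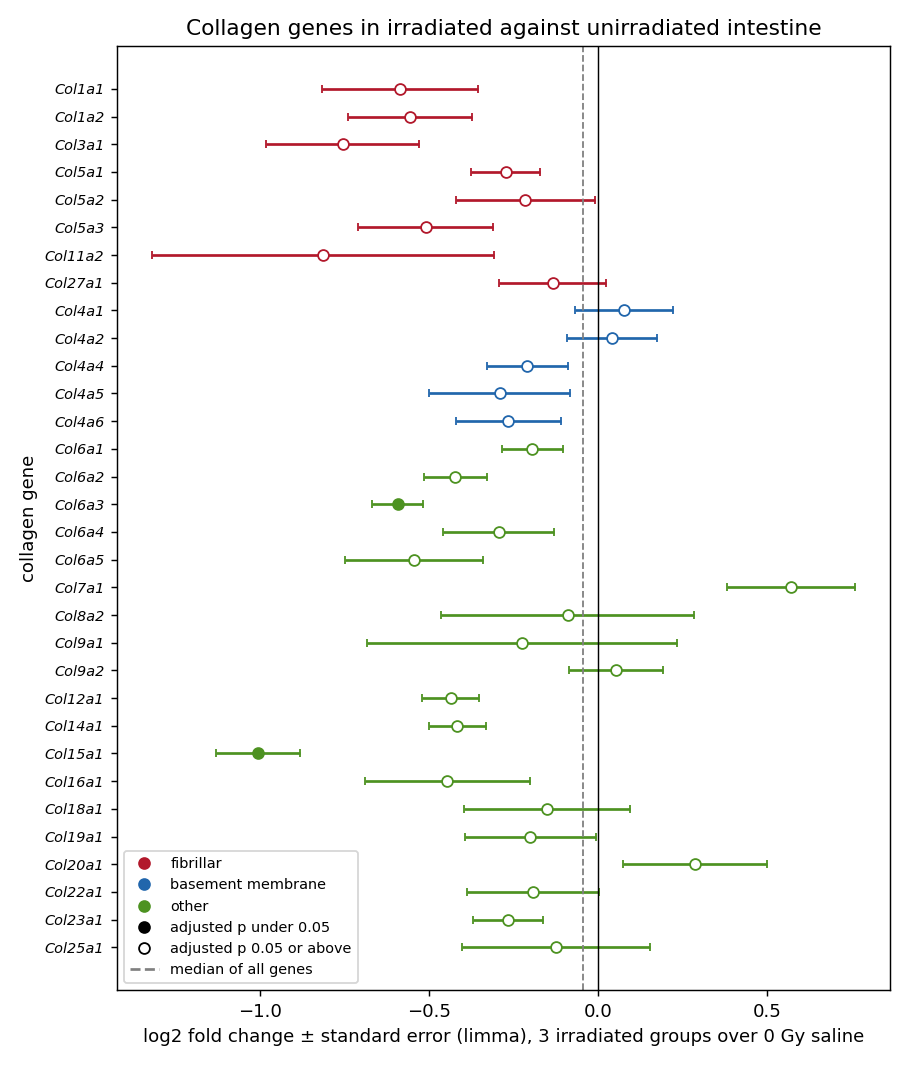
Points are log2 fold changes of the 3 irradiated groups over 0 Gy saline with limma's standard error, 1 row per measured collagen and 1 colour per class, filled where the adjusted p is under 0.05. Col15a1 at -1.01 and Col6a3 at -0.59 are filled, all 8 fibrillar points lie left of 0, and Col7a1 at 0.57 lies farthest to the right.

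All 8 measured fibrillar collagens had a negative fold change in irradiated tissue, with a median of -0.53, and none passed. At an unadjusted p under 0.05 stood 5 of the 8, namely Col3a1, Col1a2, Col5a1, Col5a3 and Col1a1. In none of the 8 were all irradiated arrays below the unirradiated ones, and in each of the 8 the array 8 Gy saline replicate 2 read above at least 1 unirradiated array. Col3a1, the homotrimeric collagen of distensible tissue, read 1.93 and 2.04 in FGF1/CPP-C mice, 2.54 and 2.35 in FGF1 mice and 2.35 and 3.23 in saline mice after 8 Gy, against 3.25 and 3.08 at 0 Gy. Only that saline array reached the unirradiated level, and the log2 difference was -0.76 ± 0.23 (limma, adjusted p = 0.14). Col1a1, one chain of type I collagen, read 0.72 and 1.06 in FGF1/CPP-C mice, 1.36 and 1.27 in FGF1 mice and 1.15 and 2.02 in saline mice after 8 Gy, against 1.84 and 1.85 at 0 Gy. It differed by -0.59 ± 0.23 (adjusted p = 0.23). Its partner chain Col1a2 read 3.00 and 3.04 in FGF1/CPP-C mice, 3.42 and 3.19 in FGF1 mice and 3.21 and 3.89 in saline mice after 8 Gy, against 3.89 and 3.80 at 0 Gy, a log2 difference of -0.56 ± 0.18 (adjusted p = 0.17).

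The number of fibrillar genes that passed depended on 1 array, 8 Gy saline replicate 2. Leaving it out leaves 1 array in its group. The wide spread of the 8 Gy saline pair, with an SD of 0.62 for Col1a1 and 0.62 for Col3a1, then drops out of the error estimate. The counts and p-values of that fit therefore cannot be set beside those with all arrays as like for like. Without 8 Gy saline replicate 2, limma called 7 collagens lower in the irradiated arrays, namely Col3a1 (log2 fold change -0.90, adjusted p = 0.031), Col1a2 (-0.67, 0.043), Col1a1 (-0.73, 0.049), Col5a3 (-0.63, 0.048), Col6a5 (-0.67, 0.049), Col6a3 (-0.62, 0.031) and Col15a1 (-1.06, 0.030). In that fit 3.01% of all genes passed, 1.21% as lower, against 2.4% and 1.07% with all arrays. Without 8 Gy saline replicate 1, 2 collagens passed, and without any other array, none did. Over all genes the number that passed was then 0 to 494, against 652 without 8 Gy saline replicate 2 and 522 with all arrays. Without the 3 arrays with antrum transcripts, all 8 fibrillar genes were still negative with a median of -0.60, and no collagen passed; 3 of the groups then held 1 array each, assumed to vary like the FGF1/CPP-C pair. That saline array also had the highest summed signal of fibroblast markers, all 9 measured, and of smooth muscle markers, all 10 measured. In units of the array's 75th percentile, the fibroblast sum was 22.4 there and 13.8 in the other 8 Gy saline array, and the smooth muscle sum was 156 and 106. Across irradiated against 0 Gy saline arrays, 7 of 10 smooth muscle markers were negative with a median log2 fold change of -0.27, 8 of 9 fibroblast markers with a median of -0.22, and all but 1 of 10 endothelium markers with a median of -0.14. None of these passed, and of 6 pericyte markers 3 were negative and 1, Notch3, rose by 0.79 ± 0.11 (limma, adjusted p = 0.036). The part of these cells in the result was not tested.

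The Col1a2 window at chr6:4505368-4505667 (GRCm38.p6, plus strand) is shown for the type I pair, which the table gives for this chain. It holds 2 GGGCGG and 2 CCAAT (1 of them read as ATTGG), in capitals.
Col1a2: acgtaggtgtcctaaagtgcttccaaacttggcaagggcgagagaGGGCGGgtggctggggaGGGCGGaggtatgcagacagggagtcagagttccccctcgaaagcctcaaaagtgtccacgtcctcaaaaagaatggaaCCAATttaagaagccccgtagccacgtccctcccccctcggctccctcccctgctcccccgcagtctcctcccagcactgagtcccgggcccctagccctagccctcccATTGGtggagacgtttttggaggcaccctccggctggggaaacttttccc

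The remaining fibrillar genes differed less or varied more. Col5a1, which nucleates type I fibrils, read -0.97 and -0.78 in FGF1/CPP-C mice, -0.65 and -0.62 in FGF1 mice and -0.58 and -0.32 in saline mice after 8 Gy, against -0.43 and -0.34 at 0 Gy, a log2 difference of -0.27 ± 0.10 (limma, adjusted p = 0.21). Its partner Col5a2 read -4.65 and -4.68 in FGF1/CPP-C mice, -4.33 and -4.57 in FGF1 mice and -4.65 and -3.86 in saline mice after 8 Gy, against -4.19 and -4.29 at 0 Gy, and differed by -0.21 ± 0.21. Col5a3, a further type V chain, read -2.34 and -2.16 in FGF1/CPP-C mice, -2.10 and -1.98 in FGF1 mice and -2.04 and -1.29 in saline mice after 8 Gy, against -1.40 and -1.55 at 0 Gy, and differed by -0.51 ± 0.20. All of its irradiated arrays but 8 Gy saline replicate 2 lay below the unirradiated ones. Col27a1, a cartilage-type fibrillar collagen, read -3.55 and -3.43 in FGF1/CPP-C mice, -3.29 and -3.19 in FGF1 mice and -3.38 and -2.83 in saline mice after 8 Gy, against -3.02 and -3.26 at 0 Gy, and differed by -0.13 ± 0.16. Col11a2, best known from cartilage fibrils, spanned 2.09 over the 8 arrays, the widest range of any measured collagen, with 8 Gy saline at -4.18 and -2.52, so its difference of -0.81 ± 0.51 is loosely measured. Not measured were Col2a1, Col11a1 and Col24a1.

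Basement membrane collagen showed no shared direction after irradiation. Of 5 measured type IV genes, 3 were negative and none passed or had an unadjusted p under 0.05, with a median log2 fold change of -0.21. Col4a1 read 0.62 and 0.58 in FGF1/CPP-C mice, 0.84 and 1.00 in FGF1 mice and 0.59 and 1.11 in saline mice after 8 Gy, against 0.70 and 0.73 at 0 Gy. Col4a2 read 0.88 and 0.84 in FGF1/CPP-C mice, 0.88 and 1.12 in FGF1 mice and 0.74 and 1.16 in saline mice after 8 Gy, against 0.87 and 0.92 at 0 Gy. These 2 chains make the common type IV trimer, and their irradiated arrays straddled the unirradiated ones, with differences of 0.08 ± 0.15 and 0.04 ± 0.13. Col4a4 read -4.89 and -5.25 in FGF1/CPP-C mice, -4.77 and -4.84 in FGF1 mice and -4.78 and -4.82 in saline mice after 8 Gy, against -4.57 and -4.79 at 0 Gy. Col4a5 read -2.97 and -3.42 in FGF1/CPP-C mice, -2.69 and -3.25 in FGF1 mice and -2.90 and -2.55 in saline mice after 8 Gy, against -2.55 and -2.80 at 0 Gy. These and Col4a6 are chains of the rarer type IV networks, and both overlapped between irradiated and unirradiated arrays. Col4a6 read -2.32 and -2.22 in FGF1/CPP-C mice, -1.95 and -2.27 in FGF1 mice and -1.85 and -2.29 in saline mice after 8 Gy, against -1.78 and -1.99 at 0 Gy. Col4a4, Col4a5 and Col4a6 differed by -0.21 ± 0.12, -0.29 ± 0.21 and -0.26 ± 0.15. Col4a3 was not measured.

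Col4a1 and Col4a2 lie head to head on chromosome 8 and run on opposite strands, with start sites 21 bases apart in RefSeq's windows on GRCm38.p6. The windows, chr8:11312777-11313076 (minus) for Col4a1 and chr8:11312555-11312854 (plus) for Col4a2, share 78 bases, and these are in capitals here in place of motif matches. Each window holds 1 CCAAT, and GGGCGG occurs 1 time in that of Col4a1 and 3 times in that of Col4a2.
Col4a1: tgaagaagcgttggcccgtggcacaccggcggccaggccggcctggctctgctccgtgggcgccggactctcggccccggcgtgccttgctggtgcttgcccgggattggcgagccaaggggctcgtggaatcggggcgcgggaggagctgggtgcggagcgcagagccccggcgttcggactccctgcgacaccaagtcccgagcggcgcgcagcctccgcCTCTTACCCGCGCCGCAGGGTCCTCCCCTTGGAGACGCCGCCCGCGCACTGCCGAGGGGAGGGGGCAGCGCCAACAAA
Col4a2: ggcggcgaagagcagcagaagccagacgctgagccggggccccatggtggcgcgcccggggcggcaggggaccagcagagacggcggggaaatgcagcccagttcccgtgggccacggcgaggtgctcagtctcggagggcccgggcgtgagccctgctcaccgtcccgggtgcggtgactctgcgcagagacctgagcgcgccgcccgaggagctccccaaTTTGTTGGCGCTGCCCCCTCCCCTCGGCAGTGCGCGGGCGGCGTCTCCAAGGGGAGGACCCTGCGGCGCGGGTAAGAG
The genes are shown because they varied together from array to array, both lowest in 8 Gy saline replicate 1 or FGF1/CPP-C replicate 2 and both highest in 8 Gy saline replicate 2. Further neighbours in RefSeq's gene order are Col4a5 with Col4a6, Col6a1 with Col6a2, Col3a1 with Col5a2, Col9a1 with Col19a1, Col4a3 with Col4a4, and Col6a4, Col6a5 and Col6a6 in a row.

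Of the other types, Col18a1, the proteoglycan from which endostatin is cut, read 1.43 and 1.34 in FGF1/CPP-C mice, 1.96 and 1.66 in FGF1 mice and 1.34 and 2.21 in saline mice after 8 Gy, against 2.01 and 1.60 at 0 Gy. Its groups overlapped, with a difference of -0.15 ± 0.25 in irradiated tissue. Col16a1, a fibril-associated chain, differed by -0.45 ± 0.24, and Col20a1 by 0.29 ± 0.21. The membrane-spanning Col23a1 differed by -0.26 ± 0.10 (limma, adjusted p = 0.23) and Col25a1 by -0.12 ± 0.28. Col9a1, Col9a2, Col19a1 and Col22a1 differed by between -0.22 and 0.05. Col8a2 passed the background test on each array in FGF1/CPP-C mice alone, Col9a1 in 2 groups and Col25a1 in 3, so their values elsewhere lie near the detection limit. Col17a1, which links epithelial cells to the anchoring system, was not measured, and neither were Col6a6, Col8a1, Col9a3, Col10a1, Col13a1, Col26a1 and Col28a1.

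**Figure D3:**
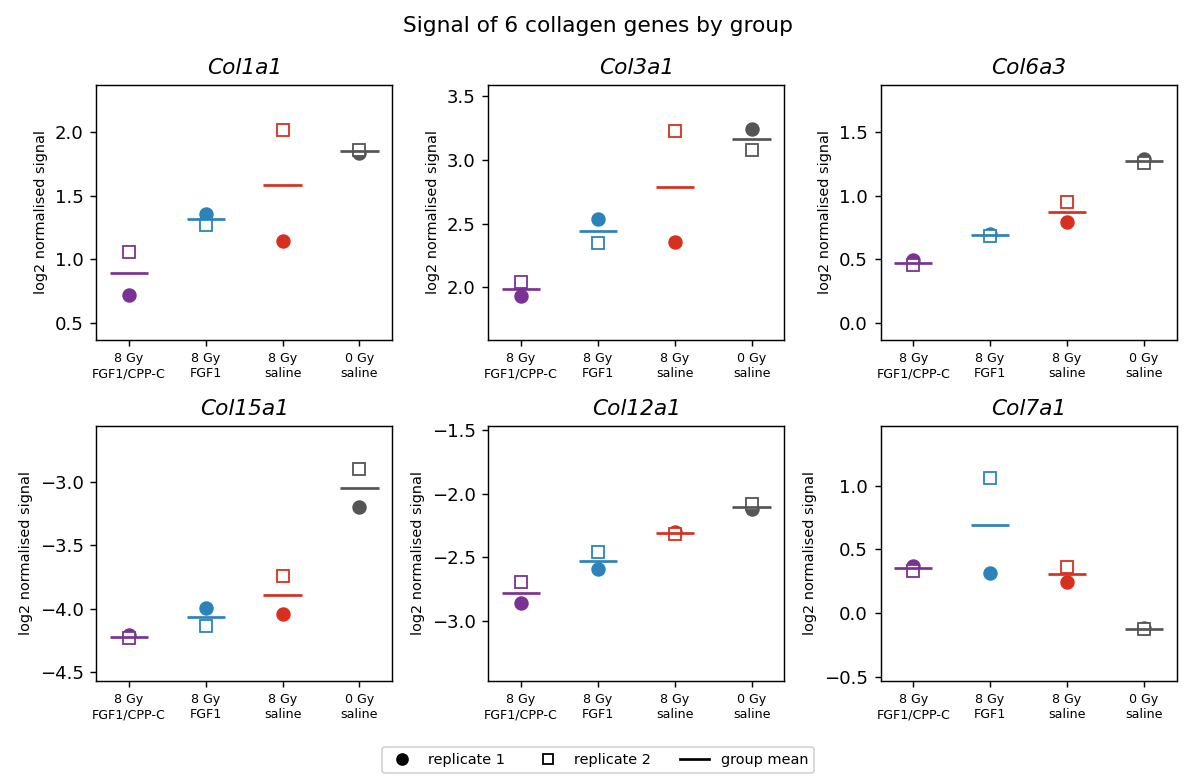
Normalised log2 signal of 6 collagen genes by group, with replicate 1 as filled circles, replicate 2 as open squares and the group mean as a line, on axes that do not start at 0. Col6a3 and Col12a1 stand in steps from 8 Gy FGF1/CPP-C (lowest) to 0 Gy saline, Col15a1 is highest at 0 Gy, Col7a1 is lowest at 0 Gy, and the 2 arrays of 8 Gy saline lie far apart for Col1a1 and Col3a1.

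Carbon ions alone were then judged by 8 Gy saline against 0 Gy saline. No collagen passed limma's test, where 0.423% of 21774 genes did, 0.0919% as lower. At an unadjusted p under 0.05, 5 collagens were lower (7.47% of all genes) and 0 higher (4.87%). The 5 were Col15a1, Col14a1, Col6a3, Col6a2 and Col6a4. Negative fold changes were found for 26 of 32 collagens and 59.7% of all genes, with medians of -0.21 and -0.05. Both 8 Gy arrays lay below both 0 Gy arrays for 8 collagens, a share near the 23.4% of all genes, and above them for Col7a1 alone, against 15.3%. Col15a1 differed by -0.84 ± 0.15 (adjusted p = 0.12) and by the same -0.84 within each slide. Col14a1 differed by -0.46 ± 0.10 (adjusted p = 0.18) and Col6a3 by -0.40 ± 0.09 (adjusted p = 0.19). All 5 type VI genes were negative, on both slides, though Col6a4 by only -0.08 on slide 1 and Col6a5 by only -0.09 on slide 2.

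Fibrillar genes gave no shared answer to 8 Gy in saline mice, as the differences within the 2 slides disagreed. On slide 1 all 8 were lower after 8 Gy, with a median log2 difference of -0.66, and on slide 2 none was lower, with a median of 0.21. Each slide set an array with antrum transcripts against an array without them. The antrum marker median on slide 1 was 2.19 at 0 Gy and -4.03 at 8 Gy saline, and on slide 2 it was -3.98 and 3.37. Slide and antrum transcripts cannot be told apart here, and their part in the fibrillar values was not tested. Averaged over the slides, the fibrillar median was -0.23, and 7 of 8 genes were negative. Col3a1 differed by -0.37 ± 0.28 (limma, adjusted p = 0.66) and Col1a2 by -0.30 ± 0.23 (adjusted p = 0.66). Type IV genes split likewise, with 5 of 5 lower on slide 1 and 2 of 5 on slide 2. Without 8 Gy saline replicate 2 the fibrillar median was -0.60, and without replicate 1 it was 0.18.

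FGF1/CPP-C was set against saline at 8 Gy to ask what the chimera changed in irradiated tissue. No collagen passed, and 0.00918% of 21783 genes did (limma). At an unadjusted p under 0.05, 6 collagens were lower (4.54% of all genes) and 0 higher (7.38%). The 6 were Col12a1, Col6a3, Col5a1, Col3a1, Col16a1 and Col1a1. Negative fold changes were found for 23 of 32 collagens and 43.4% of all genes. Both FGF1/CPP-C arrays lay below both saline arrays for 15 collagens, against 19.2% of all genes, and above them for 1 (Col6a4), against 25.6%.

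Fibrillar genes made up much of this. All 8 had a lower mean after FGF1/CPP-C, with a median log2 fold change of -0.56, where the median of all genes was 0.04. In 7 of the 8 the arrays did not overlap, and the exception was Col5a2. The size differed between the slides, with a median of -0.35 on slide 1 and -0.86 on slide 2, where the saline array held antrum transcripts. It was -0.23 without that array, 8 Gy saline replicate 2, when all 8 were still negative. Col5a1 differed by -0.43 ± 0.13 (limma, adjusted p = 0.35) and by -0.40 and -0.47 within slides 1 and 2. Col3a1 differed by -0.80 ± 0.28 (adjusted p = 0.38), 1.74-fold lower in FGF1/CPP-C mice. Col1a1 differed by -0.69 ± 0.28 and Col1a2 by -0.53 ± 0.23.

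Type IV genes were negative in 5 of 5, with a median of -0.25, and in 3 of 5 without 8 Gy saline replicate 2. Col4a5 differed by -0.47 ± 0.26 (limma, adjusted p = 0.48) and Col4a4 by -0.27 ± 0.15 (adjusted p = 0.48), both without overlap of arrays. The other collagens were mixed, 10 of 19 negative, with a median of -0.06. Among them, Col12a1 had the smallest p of any collagen, with -0.47 ± 0.10 (adjusted p = 0.29), then Col6a3 with -0.40 ± 0.09 (adjusted p = 0.31). Col16a1 differed by -0.81 ± 0.30, with both of its measured probes at -0.81.

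Smooth muscle markers differed in the same direction, and all 10 of 10 measured ones had both FGF1/CPP-C arrays below both saline arrays, with a median log2 fold change of -0.49. Their summed signal, in units of the array's 75th percentile, was 82.6 to 88.5 in FGF1/CPP-C mice, 105 to 110 in FGF1 mice and 106 to 156 in saline mice after 8 Gy, against 120 to 129 at 0 Gy. Of 9 measured fibroblast markers 6 were negative, with a median of -0.08 that hides a wide spread. Negative were Mfap5 (-3.24), Pi16 (-2.11), Dpt (-1.37), Gsn (-0.47), Cxcl12 (-0.08) and Igf1 (-0.06). Positive were Clec3b (0.31), Fbln1 (0.23) and Pdgfra (0.08). The fibroblast sums were 13.9 to 14.2 in FGF1/CPP-C mice and 13.8 to 22.4 in saline mice at 8 Gy. All 4 measured mesothelium markers of 6 were negative with a median of -1.37 (Msln -1.31, Upk3b -1.65, Upk1b -1.43 and Krt19 -0.07). Their sums, which follow the brightest members, were 86.9 to 96.5 in FGF1/CPP-C mice and 90.4 to 104 in saline mice at 8 Gy. Of 10 enterocyte markers 9 were positive, and their median was 0.33. Of 7 adipocyte markers, 5 had both FGF1/CPP-C arrays below both saline arrays, and the same number had both FGF1 arrays below them. On the arrays, 2 and 4 of the 7 were well above background in FGF1/CPP-C mice and 3 and 4 in FGF1 mice, against all 7 on each 8 Gy saline array and 7 and 5 at 0 Gy. The 8 Gy saline pair was the highest. Adipocyte marker medians were -2.5 and -3.5 there and -4.7 and -5.1 at 0 Gy. They were -6.6 and -5.8 in FGF1/CPP-C mice and -6.3 and -5.8 in FGF1 mice. For 5 of the 7, both 8 Gy saline arrays lay above both 0 Gy arrays. Against 8 Gy saline, FGF1/CPP-C mice differed by -3.26 for Adipoq, -3.58 for Retn, -5.53 for Cfd, -5.33 for Car3 and -1.33 for Plin1. Cidec differed by 0.10 and Lep by 0.19. The adipocyte sums, which follow the brightest members, were 16.4 to 19.8 in FGF1/CPP-C mice, against 17 to 20.7 in saline mice at 8 Gy. None of these markers passed the test, every smooth muscle and fibroblast marker was well above background on all 8 arrays, and their part in the collagen values was not tested.

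**Figure D4:**
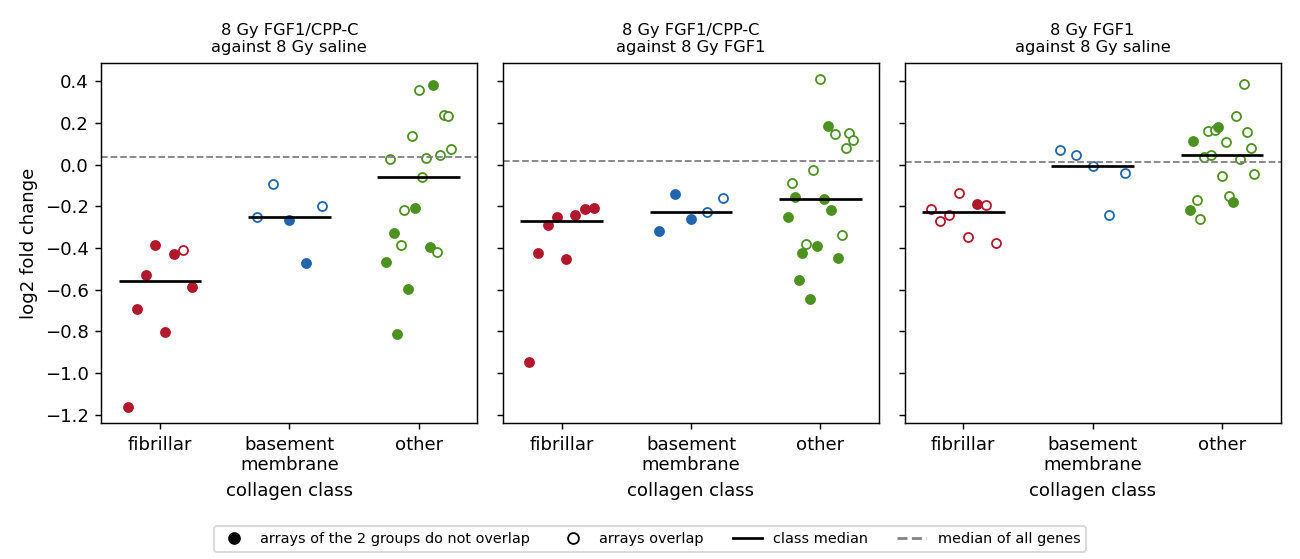
Each point is a collagen's log2 fold change, by class, in 8 Gy FGF1/CPP-C over 8 Gy saline, 8 Gy FGF1/CPP-C over 8 Gy FGF1 and 8 Gy FGF1 over 8 Gy saline, filled where the arrays of both groups do not overlap, with the class median as a line and the median of all genes dashed. The fibrillar medians are -0.56, -0.27 and -0.23, and all fibrillar points in the middle panel are filled.

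The chimera was also set against FGF1 itself at 8 Gy, a comparison whose fold changes do not use the saline arrays. Its standard errors and p-values do use them, through the spread estimated over all 8 arrays. Again 0 collagens passed limma's test, as did 0.00918% of 21797 genes, and at an unadjusted p under 0.05 2 were lower (3.54% of all genes) and 0 higher (5.48%). Both FGF1/CPP-C arrays lay below both FGF1 arrays for 20 of 32 collagens, against 20.9% of all genes, and above them for 1 (Col6a2), against 24.7%. Of 32 collagens 26 were negative, as were 46.3% of all genes.

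This held in each class. All 8 fibrillar genes were lower in FGF1/CPP-C mice with no overlap of arrays, on both slides, with a median log2 fold change of -0.27, within a range from -0.95 for Col11a2 to -0.21 for Col5a3. Col3a1 differed by -0.45 ± 0.28 (limma, adjusted p = 0.71) and Col5a1 by -0.24 ± 0.13 (adjusted p = 0.65). All 5 type IV genes were negative, 3 of them without overlap (Col4a1, Col4a2 and Col4a4), with a median of -0.23. That median was -0.12 without FGF1/CPP-C replicate 2 and -0.13 under normexp background correction, and 3 of 5 were negative without FGF1 replicate 1. The other collagens had a median of -0.16, with 13 of 19 negative and 9 without overlap. Col23a1, a membrane-spanning collagen, and Col20a1, a fibril-associated one, were the 2 with an unadjusted p under 0.05. Col23a1 read -2.33 and -2.42 in FGF1/CPP-C mice, against -2.02 and -1.95 in FGF1 mice, a difference of -0.39 ± 0.13 (adjusted p = 0.46). Col20a1 read -1.09 and -1.03 in FGF1/CPP-C mice, against -0.26 and -0.58 in FGF1 mice, a difference of -0.64 ± 0.26 (adjusted p = 0.55), and its second probe differed by -0.62. Of the 10 smooth muscle markers, 9 were negative here and 8 did not overlap, with a median of -0.25, and their part was not tested. The fibrillar median was -0.29, with 8 of 8 negative, when the 3 arrays with antrum transcripts were left out.

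FGF1 against saline at 8 Gy gave the least. No collagen passed, none had an unadjusted p under 0.05, and of 21784 genes 0% passed, with 0.748% lower and 1% higher at an unadjusted p under 0.05 (limma). In all, 18 of 32 collagens had a negative fold change, as did 46.1% of all genes. All 8 fibrillar genes had a negative mean difference with a median of -0.23, but the median was 0.20 within slide 1 and -0.70 within slide 2, and 0.12, with 2 of 8 negative, without 8 Gy saline replicate 2. Both FGF1 arrays lay below both saline arrays for 3 collagens (Col5a1, Col12a1 and Col6a3), against 7.87% of all genes, and above them for 2 (Col14a1 and Col23a1), against 11.6%. Col12a1 differed by -0.22 ± 0.10 and Col6a3 by -0.18 ± 0.09, and Col7a1 by 0.39 ± 0.23. The type IV median was -0.01 and that of the other collagens 0.05. The comparisons with 8 Gy saline share its 2 arrays, so their values are given side by side and not as support for each other.

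Levels by array show where the classes part. Relative to each gene's own mean over the 8 arrays, the fibrillar median was -0.46 and -0.33 in FGF1/CPP-C mice, -0.05 and -0.15 in FGF1 mice and -0.23 and 0.56 in saline mice after 8 Gy, against 0.45 and 0.28 at 0 Gy. The type IV median was -0.08 and -0.19 in FGF1/CPP-C mice, 0.07 and -0.0026 in FGF1 mice and -0.01 and 0.24 in saline mice after 8 Gy, against 0.27 and 0.05 at 0 Gy. For the other collagens it was -0.10 and -0.30 in FGF1/CPP-C mice, 0.09 and -0.08 in FGF1 mice and -0.04 and 0.02 in saline mice after 8 Gy, against 0.26 and 0.24 at 0 Gy. Both FGF1/CPP-C arrays were the lowest 2 of the 8 in every class. The pooled SD between arrays of a group was 0.29 for the fibrillar, 0.13 for the type IV and 0.10 for the other median. The fibrillar value rests on the 8 Gy saline pair, at -0.23 and 0.56. In the other groups the fibrillar pairs lay closer together, and the fibrillar class was not the most variable in any of them.

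**Figure D5:**
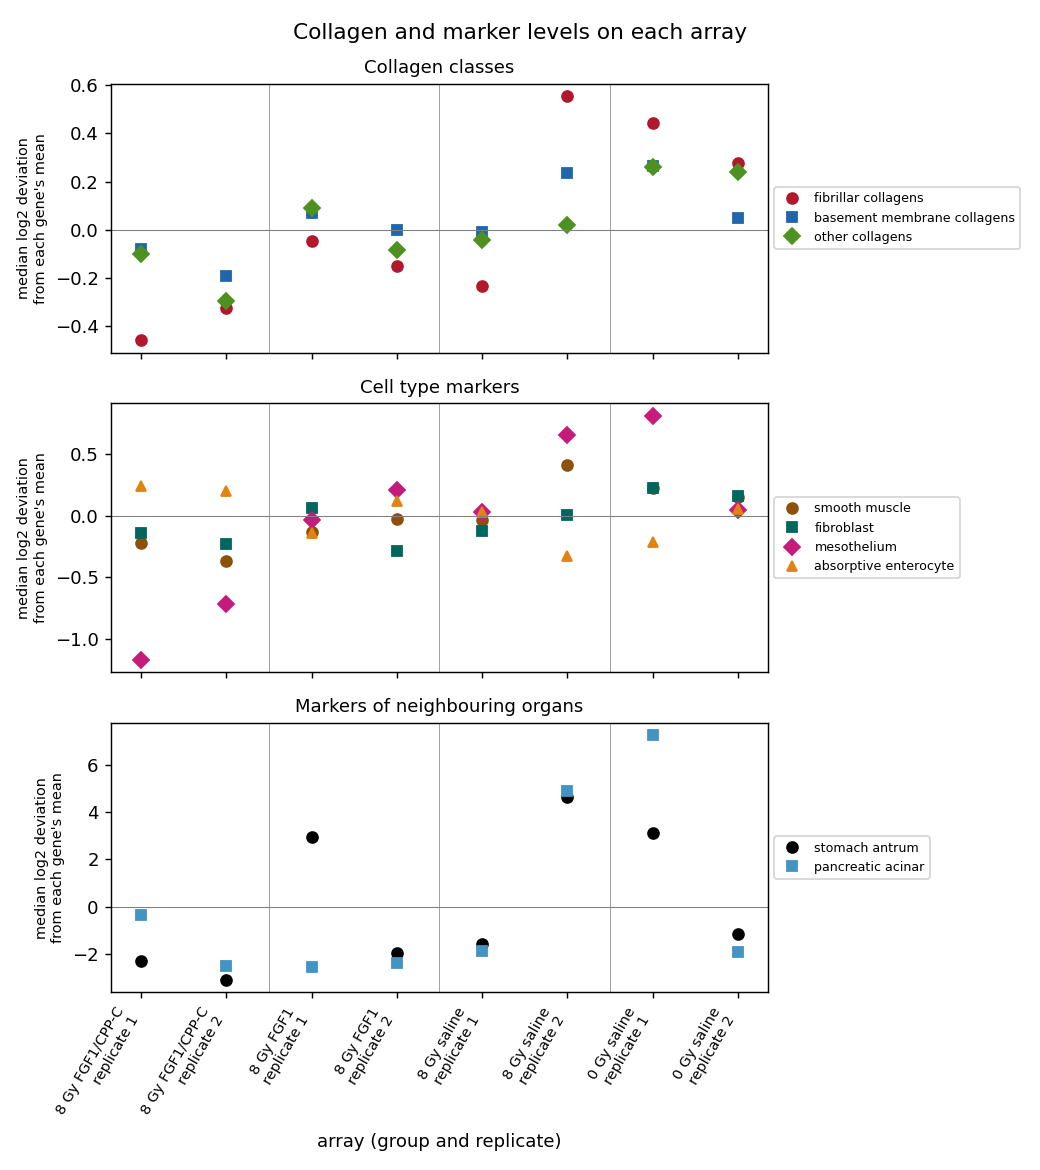
For each array, from 8 Gy FGF1/CPP-C on the left to 0 Gy saline on the right, points give the median log2 deviation from each gene's mean over 8 arrays for the 3 collagen classes (top), 4 cell type marker lists (middle) and markers of 2 neighbouring organs (bottom). In 8 Gy saline replicate 2, fibrillar collagens stand at 0.56, smooth muscle markers at 0.40 and enterocyte markers at -0.33, and stomach antrum and pancreatic markers are high.

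Col1a1 was used to describe which genes had the most similar pattern over the 8 arrays. Among 21586 genes with a value on every array, the highest Pearson correlations were those of Zfp446 (0.99), Gps1 (0.99), Nol12 (0.99), Med25 (0.98) and Afap1 (0.98). Col3a1 came next, at rank 6 with 0.98, followed among collagens by Col1a2 at rank 17, Col5a3 at rank 25, Col5a1 at rank 41 and Col6a5 at rank 53. Type IV chains had lower correlations, with 0.68 for Col4a5, 0.54 for Col4a1, 0.50 for Col4a4, 0.45 for Col4a2 and 0.31 for Col4a6. Correlations were negative for Col8a2 (-0.49), Col25a1 (-0.43), Col9a2 (-0.41), Col7a1 (-0.41), Col9a1 (-0.40), Col6a4 (-0.28) and Col22a1 (-0.15). The 8 arrays share groups, slides and tissue make-up, so these are descriptions of likeness.

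The genes that fold, cut, degrade and bind collagen were taken as lists. They are described here for irradiated against 0 Gy saline arrays, with limma's test, where 57.5% of all genes were negative, 1.33% passed as higher and 1.07% as lower. Of the 20 measured folding and modification genes, 14 were negative, with a median log2 fold change of -0.13. Plod2, the lysyl hydroxylase of the collagen telopeptide, rose. It read -1.88 and -2.11 in FGF1/CPP-C mice, -1.88 and -1.89 in FGF1 mice and -1.68 and -1.72 in saline mice after 8 Gy, against -2.48 and -2.45 at 0 Gy, with a difference of 0.61 ± 0.09 (adjusted p = 0.033, 0.056 with the slide as a block). The Plod2 call was also lost with series matrix values (limma, adjusted p = 0.10). Serpinh1, which encodes the collagen chaperone Hsp47, had the next smallest p. It read 0.48 and 0.63 in FGF1/CPP-C mice, 0.94 and 0.91 in FGF1 mice and 0.74 and 1.25 in saline mice after 8 Gy, against 1.53 and 1.64 at 0 Gy. All irradiated arrays were below the unirradiated ones, by -0.76 ± 0.14 (adjusted p = 0.059). None of 12 measured propeptide cleavage and crosslinking genes passed, 9 being negative, and the smallest p belonged to Pxdn, which crosslinks type IV collagen (-0.41 ± 0.08, adjusted p = 0.069), and to the transglutaminase Tgm2 (0.39 ± 0.13, adjusted p = 0.17).

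Among 17 measured genes of collagen breakdown and its inhibitors, 1 passed as higher and 2 as lower. Timp1, an inhibitor of matrix metalloproteinases, rose. It read -1.02 and -1.26 in FGF1/CPP-C mice, -0.51 and -0.37 in FGF1 mice and -1.5 and -1.23 in saline mice after 8 Gy, against -2.16 and -2.55 at 0 Gy, with a difference of 1.38 ± 0.15 (limma, adjusted p = 0.015). FGF1 mice were the highest group. The collagen uptake receptor Mrc2 fell by 0.84 ± 0.14 (adjusted p = 0.047) and the stromal metalloproteinase Mmp11 fell by 0.68 ± 0.12 (adjusted p = 0.0495), both above the threshold with the slide as a block, at 0.073 and 0.066. Both were also lost with quantile normalisation, with series matrix values and with no filter on dim probes, and of 17 alternatives 4 called Mrc2 and 5 called Mmp11. Of 10 measured collagen receptors, 9 were negative and 2 passed, Mrc2 again and Itga11, a fibroblast integrin that binds fibrillar collagen. Itga11 read -2.16 and -2.07 in FGF1/CPP-C mice, -2.28 and -1.77 in FGF1 mice and -1.97 and -1.94 in saline mice after 8 Gy, against -1.05 and -1.10 at 0 Gy. It fell by 0.96 ± 0.14 (adjusted p = 0.036, 0.051 with the slide as a block). The Itga11 call was also lost with no filter on dim probes (limma, adjusted p = 0.072).

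Of 15 measured basement membrane partners 9 were negative, with a median of -0.12. The laminin chain Lamb1 differed by -0.29 ± 0.09 (adjusted p = 0.15). Among 22 measured fibril-associated matrix genes, 20 were negative with a median of -0.39, and 1 passed. Fbn2, a microfibril glycoprotein, fell by 0.79 ± 0.11 (adjusted p = 0.034, 0.056 with the slide as a block). The Fbn2 call was also lost with no filter on dim probes (limma, adjusted p = 0.063). None of 16 measured TGF-beta ligands, receptors and targets passed, 9 being positive, with Smad2 at 0.32 ± 0.08 (adjusted p = 0.098) and Tgfb2 at -0.42 ± 0.11 (adjusted p = 0.11). Left out together, the 3 arrays with antrum transcripts took every one of these calls away, with an adjusted p of at least 0.28 for each.

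No member of these lists passed in the 3 comparisons between pretreatments. In FGF1/CPP-C against saline, the laminin chains Lamb3 and Lama1 differed by -1.08 ± 0.22 (limma, adjusted p = 0.26) and 0.42 ± 0.14 (adjusted p = 0.37). Mfap5, a microfibril protein that is also in the fibroblast marker list, read -5.38 and -5.46 in FGF1/CPP-C mice, -3.07 and -3.70 in FGF1 mice and -3.21 and -1.15 in saline mice after 8 Gy, against -1.69 and -3.20 at 0 Gy. Its difference from 8 Gy saline was -3.24 ± 0.76 (adjusted p = 0.31), and Fbln2 differed by -0.59 ± 0.19 (adjusted p = 0.37). The ligand Tgfb2 differed by -0.55 ± 0.13 (adjusted p = 0.32). In FGF1/CPP-C against FGF1, Timp1 differed by -0.69 ± 0.18 (adjusted p = 0.37) and Tgm2 by -0.54 ± 0.16 (adjusted p = 0.41). In FGF1 against saline, Timp1 differed by 0.92 ± 0.18 and Tgm2 by 0.71 ± 0.16, each with an adjusted p of 1.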

How the data were processed

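RNA from small intestine was hybridised with Cy3 to 1-colour Agilent arrays of 60-base probes with mm9 coordinates. Per the file headers, the authors' scanner software, Agilent Feature Extraction 9.5.3.1, subtracted background and wrote processed intensity on a linear scale, which was used here. The deposited series matrix, whose values were also read as intensity, served as an alternative.

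Of 43020 non-control spots (1377 control spots left out), outlier flags were dropped and spots of a probe averaged, giving 39429 probes. Signals were divided by the array's 75th percentile, held at a floor of -6.74 on the log2 scale (the highest, over arrays, of each array's lowest scaled signal well above background, chosen after negative signals were found), and expressed as log2. The 27469 probes well above background on both arrays of a group were kept, and a gene was represented by its brightest kept probe. limma 3.58.1 in R 4.3.3 fitted 4 group means to 8 arrays with 4 residual degrees of freedom, eBayes, and Benjamini-Hochberg adjustment over all genes tested. A gene was called at an adjusted p under 0.05. Where a slide block is named, the slide was added to that fit.

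The fit was tested on simulated data for 21587 genes: for irradiated against 0 Gy saline arrays, 73.1% of genes changed 2-fold were recovered, and for FGF1/CPP-C against saline 52.2%. Noise was drawn independently for each gene and array, with no slide effect and no variation shared between genes. These shares therefore do not measure recovery in the real arrays. Alternatives changed the normalisation, background correction, dim-probe filter, probe summary, moderation, samples fitted, slide block and arrays included. Every measured collagen could be named. Values of each array were set down for chosen chains of the main types, for collagens that passed, and for the 2 of smallest p in each class and comparison, and of the lists the members that passed or else the 2 of smallest p were named; a few others are named because a count turned on them. Members and lists were chosen with earlier results of these data known. Promoter windows came from RefSeq on GRCm38.p6, and 35 of the 44 collagen genes had one. Exon and UTR positions of the mm9 probes were not used here. Some results for genes of the lists are not reported here.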

Additional observations from a re-analysis of the deposited data

Results flagged for a closer look

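Probes of 4 collagens outside the comparisons were well above background on 1 or 2 irradiated arrays and on no 0 Gy saline array, and each is given as its normalised log2 signal. The Col13a1 probe, for a membrane-spanning collagen, read -4.94 in 8 Gy FGF1 replicate 1, where the higher 0 Gy saline array read -5.78, and it also passed in 8 Gy saline replicate 1, at -5.93, below that 0 Gy array. The Col17a1 probe read -5.68 in 8 Gy FGF1/CPP-C replicate 2, where 0 Gy saline stood at the floor of -6.74. The Col2a1 probe, for cartilage collagen, read -6.11 in 8 Gy saline replicate 2, again with 0 Gy saline at -6.74. The Col4a3 probe read -6.19 in 8 Gy saline replicate 1, where the higher 0 Gy saline array read -6.33. In no group did both arrays pass the background test for any of them, and no difference was tested.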

How the results depend on the processing

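In irradiated against 0 Gy saline arrays, 2 collagens passed, with 4 under normexp background correction (Col6a2 and Col12a1 added), 3 with trend and robust moderation (Col14a1 added, adjusted p = 0.042, limma), 1 with series matrix values (Col15a1), 1 with no filter on dim probes (Col6a3), 1 with the replicate block by slide (Col15a1), 0 without the 3 arrays with antrum transcripts, and 0 to 7 with 1 array left out. Over all genes the count was 522, and 0 to 760 over the alternatives. In the other 4 comparisons, no collagen passed under any alternative. With the 3 arrays left out, the fibrillar median was -0.5403 in 8 Gy saline against 0 Gy saline, 0.0719 in FGF1 against saline and -0.2343 in FGF1/CPP-C against saline, and that of other collagens was -0.09135 in FGF1 against saline and -0.3618 in irradiated arrays. Series matrix values gave the other collagens -0.3134 in FGF1/CPP-C against saline and -0.2931 against FGF1, the filter on all arrays gave -0.2143 in FGF1/CPP-C against saline, and quantile normalisation gave type IV -0.07549 in irradiated arrays. Leaving out 1 array, medians in 8 Gy saline against 0 Gy saline ran from -0.6023 to 0.1786 (fibrillar), -0.1774 to 0.123 (type IV) and -0.3222 to -0.2003 (other). In FGF1 against saline they ran from -0.6474 to 0.1179, -0.1617 to 0.02922 and -0.1103 to 0.1436 in that order of classes. In FGF1/CPP-C against saline they ran from -0.9165 to -0.2343 (fibrillar) and -0.2559 to -0.03535 (other), and in irradiated arrays from -0.3546 to -0.2112 (other). Signs turned without the 3 arrays for Col4a6 (0.1418) and Col4a4 (0.01549) in 8 Gy saline against 0 Gy saline and for Col5a3 (0.06122) in FGF1 against saline. With 1 array left out they turned for Col4a6 (-0.4053 to 0.035), Col3a1 (-0.8098 to 0.06346) and Col1a2 (-0.6408 to 0.0426) in 8 Gy saline against 0 Gy saline, and for Col4a5 (-0.5236 to 0.04082) and Col4a1 (-0.1921 to 0.328) in FGF1 against saline. The cause was not tested. Of 534 values of single collagens under alternatives, 506 kept direction and side of the threshold. The number marks the slide, per the file headers. Same-numbered arrays, as deviations from their group means, correlated between -0.521 and 0.538 over the group pairs, which cannot show which animals were used. The block changed no call of a collagen other than Col6a3. A fit of only the groups compared was not run for the irradiated mean, which uses every group. With 2 arrays a group, 52.2% to 73.1% of 2-fold changes were recovered in simulated data with independent noise, which lacked the shared variation of the real arrays. No smaller change was simulated, and dim probes near the floor have no order.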
